A study of Homo sapiens with 4 samples.

Results

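The genes described here are 36 genes of homologous recombination and of the Fanconi anaemia pathway, with the checkpoint kinases and the histone variant that act beside them. They were taken by gene symbol from a table of 58735 genes, and each symbol matched a gene of the table. RNA of HFL1 cells, a line of human fetal lung fibroblasts, had been sequenced in 2 libraries labelled KO and 2 labelled WT. The series' design text names calumenin (CALU), which encodes a calcium-binding protein of the endoplasmic reticulum, as the gene that was knocked out or knocked down. The labels give neither the guide nor whether KO is 1 clone, no treatment and no time, and nothing in them says that the replicates are separate cultures. P-values therefore measure only the spread between these libraries.

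Levels are FPKM, fragment counts scaled for gene length and library depth, as deposited. The reads behind these values, recovered from FPKM and gene length, numbered 17699349 and 16622382 in the KO libraries, against 17715774 and 16173899 in the WT libraries. Reads of mitochondrial genes made up 9.34% and 9.71% of the KO libraries, against 9.66% and 12.7% of the WT libraries. CALU had 6.59 and 5.95 FPKM in KO cells, against 87.7 and 81.8 FPKM in WT cells, and it fell by 3.56 on the log2 scale (SE 0.14, limma adjusted p = 0.0015). The label of the cell type was borne out by few of its markers: 8 of 13 fibroblast genes were under 1 FPKM in each library, and COL1A2 and POSTN were listed at 0. Of the 5 tested, COL1A1 rose, with 3.04 and 3.16 FPKM in KO cells, against 0.234 and 0.280 FPKM in WT cells (limma adjusted p = 0.0041), and TWIST2 fell, with 6.60 and 7.08 FPKM in KO cells, against 11.6 and 10.5 FPKM in WT cells. COL1A1 was tested only because its KO libraries reached 1 FPKM. The limma call of TWIST2 (adjusted p = 0.0270) was lost without WT replicate 1, WT replicate 2 or KO replicate 1 (adjusted p = 0.219, 0.134 and 0.0661). VIM had 106 and 84.6 FPKM in KO cells, against 76.5 and 46.8 FPKM in WT cells, and the list summed to 567 and 820.1 FPKM in KO cells, against 1023 and 1412 FPKM in WT cells, mostly from S100A4. The summed level of 10 epithelial genes was 1922 and 2295 FPKM in KO cells, against 1041 and 1180 FPKM in WT cells. Of the 8 tested, 4 rose, CDH1 and KRT19 among them, where 12.1% of all tested genes did. With 1 library left out in turn, the CDH1 fold was 4.49 to 5.65 and the KRT19 fold 2.71 to 3.15. CLDN4 fell, with 0.947 and 0.973 FPKM in KO cells, against 4.57 and 5.27 FPKM in WT cells (limma adjusted p = 0.0041). All 8 endothelial genes and 7 of 8 leukocyte genes stayed under 1 FPKM in each library, and the other leukocyte gene, CD14, fell, with 5.84 and 6.41 FPKM in KO cells, against 19.4 and 16.9 FPKM in WT cells (limma adjusted p = 0.0046). The part of cell identity in the results was not tested.

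Homologous recombination copies the sister chromatid to mend a broken chromosome, so it works mainly in S and G2 phase. Nucleases trim the broken ends, the BRCA proteins prepare the single strand for pairing with the intact copy, and helicases take the joined molecules apart. The Fanconi proteins recognise a crosslink between the DNA strands at a stalled fork, attach ubiquitin to FANCD2 and FANCI, and hand the break that follows to recombination. Many of these genes are known to be transcribed mostly in dividing cells.

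Of the 36 genes, 35 passed the filter of at least 1 FPKM in 2 libraries, and 20 of them rose in KO cells at a limma adjusted p under 0.05. That is 57.1% of those tested, against 12.1% of all 14100 tested genes. None fell, where 11.1% of all tested genes did. No member was lower in KO cells at an unadjusted p under 0.05 or by limma voom on recovered reads either, and 27 were higher at that unadjusted p. By limma voom 14.7% of all tested genes fell. The share of all tested genes past the unadjusted p was not taken, and the 12.1% and 11.1% hold for the adjusted p only. The median log2 change of the 35 genes was 0.96, against 0.03 over all tested genes. The 20 genes rose by 1.50-fold to 5.55-fold, and 10 of them by at least 3-fold.

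In 30 of the 36 genes both KO libraries stood above both WT libraries, an order that 34.4% of all tested genes had. RAD51D alone had both KO libraries below both WT libraries, as did 31.3% of all tested genes. The groups overlapped in the other 5 genes: PALB2, RAD51C, NBN, RBBP8 and ATR. A filter on low values lets a gene pass through its higher group, and 6 tested genes reached 1 FPKM in fewer than 2 WT libraries. These were BARD1, BRCA2, BRIP1, BLM, FANCB and FANCM, and they were tested because of their KO libraries. Among the 29 genes with at least 1 FPKM in both WT libraries, 16 rose (55.2%), against 10.6% of all such genes. In bulk RNA, more cells in cycle and more RNA per cell cannot be told apart.

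The number of calls rests on single libraries. Without WT replicate 1 the limma test called 8 members, and 3.58% of all tested genes rose. Without any other single library it called 15 to 17 members. WT replicate 2 lay above WT replicate 1 in 18 of the 20 genes that rose, and the share of all tested genes with that order was not taken. RAD51AP1, UBE2T and H2AFX were called under all 13 alternatives run, and they were the 3 members called with no filter on low values. An exact permutation test of 2 libraries against 2 cannot go below a two-sided p of 0.333, so the calls rest on the limma fit over all tested genes.

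**Figure D1:**
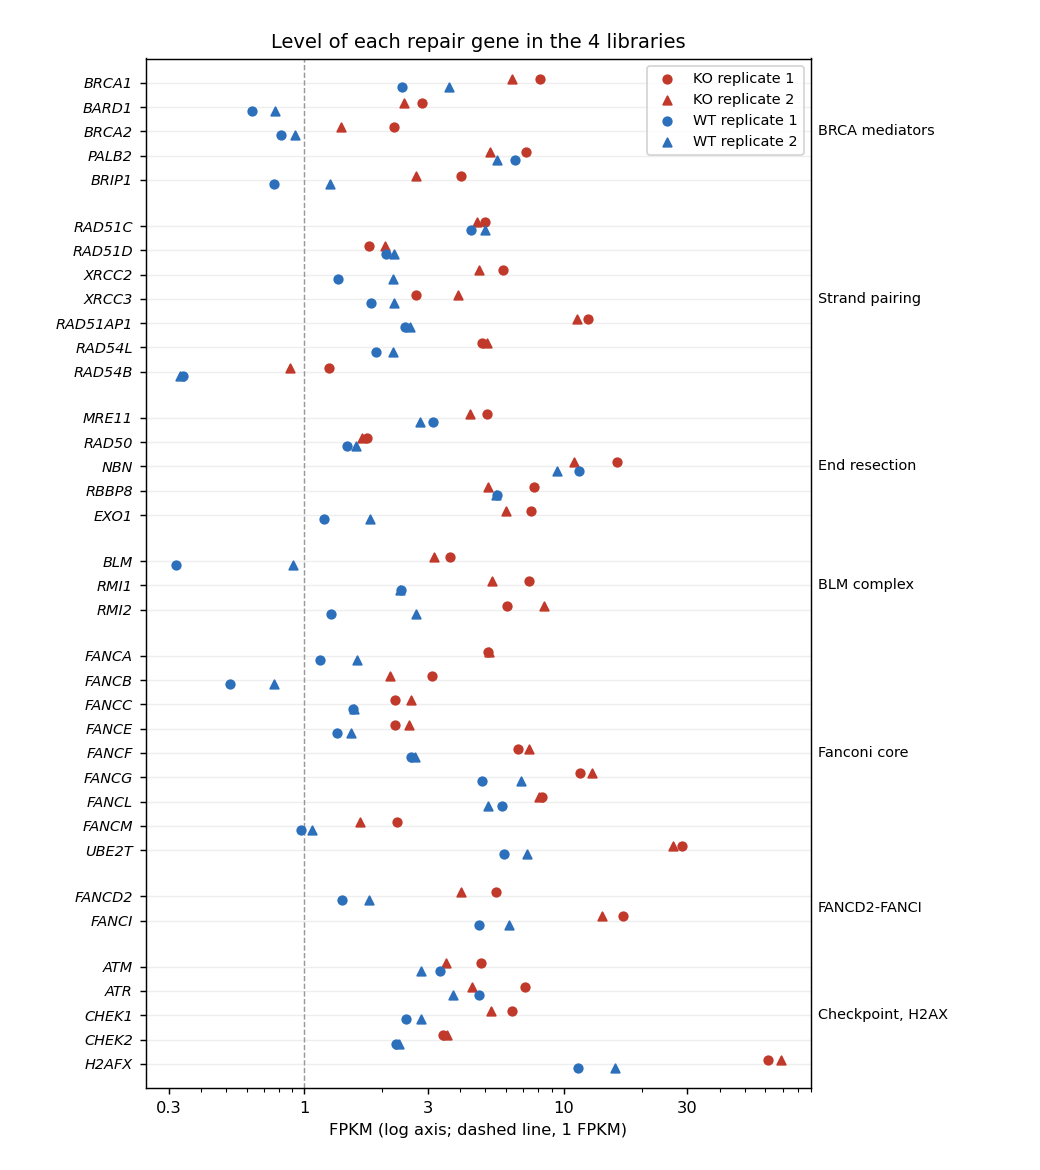
Level of each of the 36 genes in FPKM (log axis) in the 4 libraries, grouped by role, with KO libraries in red and WT libraries in blue; circles are replicate 1 and triangles replicate 2. The red points stand to the right of the blue points in 30 genes, and H2AFX and UBE2T are the most abundant in KO cells.

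**Figure D2:**
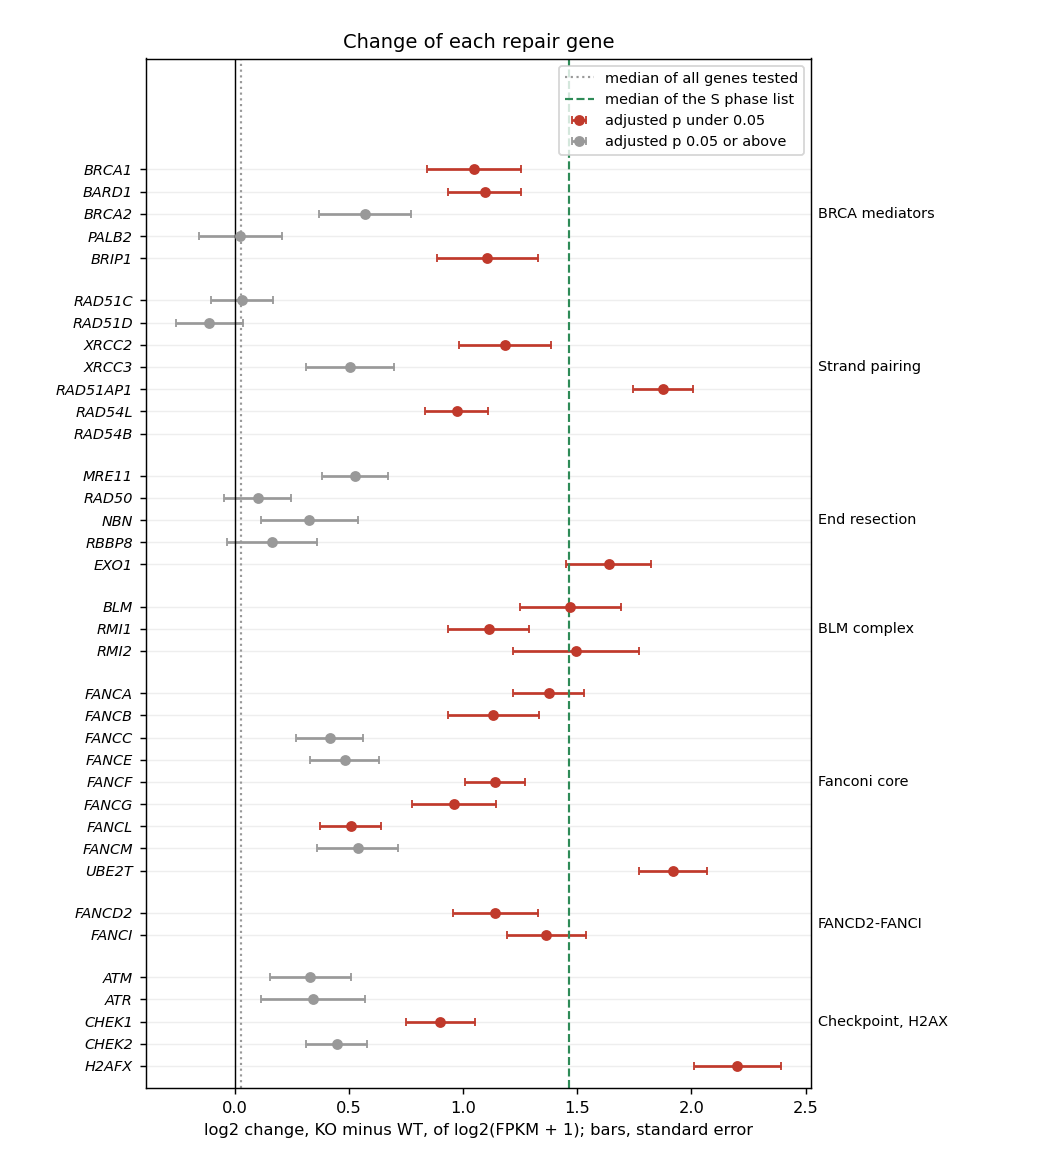
Change of each tested gene, KO minus WT, on the scale of log2(FPKM + 1), with the standard error as a bar; red points are the 20 genes that rose and grey points the 15 that did not pass the test. The dotted line is the median of all tested genes at 0.03 and the dashed line the median of the S phase list at 1.46.

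The stretch around the start of transcription is shown for 4 genes that rose and for RAD51C, whose groups overlapped, since the motifs marked are those of genes of dividing cells. RefSeq promoters on GRCh38.p14 (250 bases before to 50 bases after a start) matched 32 of the 36 genes. Capitals mark 3 motifs on either strand: the E2F core (TTTCCCGC, TTTCGCGC, TTTGCCGC or TTTGGCGC), the CHR element (TTTGAA) and the CCAAT box (CCAAT). No spelling contains another, and the spellings were chosen after these promoters had been read. E2F factors and the factors at CHR and CCAAT elements are known to switch genes on in S phase and in G2 and mitosis. XRCC2 (chr7:152676092-152676391, minus strand) and FANCD2 (chr3:10026187-10026486, plus strand) each hold 1 E2F core. H2AFX (RefSeq name H2AX, chr11:119095416-119095715, minus strand) holds 4 CCAAT boxes and 1 CHR element, and UBE2T (chr1:202341887-202342186, minus strand) holds 2 and 1. RAD51C (chr17:58692323-58692622, plus strand), whose level is described beside that of XRCC2, holds none of the 3. The stretches shown do not stand for all matched genes. BARD1, FANCB, FANCG and FANCL rose and hold none of the 3 motifs. Among genes that were not called, XRCC3 holds 5 CCAAT boxes, CHEK2 holds 3, and FANCC holds 2 E2F cores and 1 CHR element.
XRCC2: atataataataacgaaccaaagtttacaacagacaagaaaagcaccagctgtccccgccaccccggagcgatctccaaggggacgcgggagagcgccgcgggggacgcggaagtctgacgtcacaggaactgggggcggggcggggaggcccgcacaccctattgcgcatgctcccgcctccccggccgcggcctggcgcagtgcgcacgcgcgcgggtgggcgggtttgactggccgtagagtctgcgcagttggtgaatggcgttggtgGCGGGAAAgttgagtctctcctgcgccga
FANCD2: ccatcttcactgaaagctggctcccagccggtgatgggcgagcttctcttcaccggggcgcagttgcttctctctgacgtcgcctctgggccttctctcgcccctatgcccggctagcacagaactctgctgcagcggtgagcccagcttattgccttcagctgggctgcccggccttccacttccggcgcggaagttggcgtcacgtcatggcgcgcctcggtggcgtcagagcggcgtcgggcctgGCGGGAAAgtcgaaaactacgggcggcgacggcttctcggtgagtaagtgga
H2AFX: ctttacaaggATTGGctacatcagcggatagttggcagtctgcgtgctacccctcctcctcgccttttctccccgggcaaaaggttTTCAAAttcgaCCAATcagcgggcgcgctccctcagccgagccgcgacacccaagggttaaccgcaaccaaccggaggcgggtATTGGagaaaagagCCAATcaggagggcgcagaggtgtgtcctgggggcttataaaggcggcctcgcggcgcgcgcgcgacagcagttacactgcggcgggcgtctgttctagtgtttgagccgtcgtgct
UBE2T: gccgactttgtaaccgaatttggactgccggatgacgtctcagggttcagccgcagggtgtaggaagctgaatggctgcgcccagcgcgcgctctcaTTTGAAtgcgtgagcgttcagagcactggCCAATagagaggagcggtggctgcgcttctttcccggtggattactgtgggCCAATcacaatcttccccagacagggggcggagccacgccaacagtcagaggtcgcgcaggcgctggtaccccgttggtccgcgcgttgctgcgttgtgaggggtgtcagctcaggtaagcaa
RAD51C: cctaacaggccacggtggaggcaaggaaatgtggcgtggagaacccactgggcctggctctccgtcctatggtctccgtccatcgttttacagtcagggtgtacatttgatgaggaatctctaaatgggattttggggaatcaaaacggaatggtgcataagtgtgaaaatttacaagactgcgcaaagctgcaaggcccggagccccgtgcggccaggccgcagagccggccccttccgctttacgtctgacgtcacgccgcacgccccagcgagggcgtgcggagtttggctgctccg

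An E2F core stood in a promoter of 6 of the 32 matched genes (EXO1, FANCA, FANCC, FANCD2, RMI1 and XRCC2), against 3.99% of all 27305 genes with a promoter in the table and 5.36% of its 14896 coding genes. Of these 6 genes, 5 are among the 18 matched genes that rose, and FANCC is among the other 14. A CCAAT box stood in 17 of the 32 genes, against 39.7% of all genes and 42.3% of coding genes. It stood in 11 of the 18 that rose and in 6 of the other 14. TTTGAA stood in 5 of the 32 genes (15.6%), against 18.2% of all genes and 15.8% of coding genes. A match is a description of these letters, and no test was made of it. Since the spellings were chosen after the members' promoters had been read, the members' shares cannot be weighed against those of all genes. The same holds for the split by call.

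The BRCA proteins act on the processed end, and 3 of the 5 genes of this group rose. BRCA1, the ubiquitin ligase that opens the way to recombination, had 8.10 and 6.34 FPKM in KO cells, against 2.38 and 3.62 FPKM in WT cells. Both KO libraries lay above both WT libraries, and the gene rose 2.41-fold (log2 change 1.05, SE 0.21, limma adjusted p = 0.0219). BARD1, its partner in the ligase, had 2.84 and 2.43 FPKM in KO cells, against 0.632 and 0.774 FPKM in WT cells (3.75-fold, log2 change 1.09, SE 0.16, limma adjusted p = 0.0106). The partner had the larger fold: BRCA1 over BARD1 was 2.85 and 2.60 in KO libraries, against 3.76 and 4.67 in WT libraries, with no overlap; such ratios are given per library as descriptions, with no test. BRIP1, the helicase that binds BRCA1, had 4.01 and 2.70 FPKM in KO cells, against 0.768 and 1.26 FPKM in WT cells (3.31-fold, limma adjusted p = 0.0224). Both BARD1 and BRIP1 needed their KO libraries to pass the filter.

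BRCA2, the gene of the large mediator protein that PALB2 binds, did not pass the test. Its levels were 2.22 and 1.39 FPKM in KO cells, against 0.812 and 0.925 FPKM in WT cells (log2 change 0.57, SE 0.20, limma adjusted p = 0.0959), and limma voom on recovered reads called it (adjusted p = 0.0215). PALB2, the bridge between BRCA1 and BRCA2, had 7.16 and 5.22 FPKM in KO cells, against 6.52 and 5.53 FPKM in WT cells. The PALB2 groups overlapped fully (log2 change 0.02, SE 0.18, limma adjusted p = 0.939). BRCA1 over PALB2 was 1.13 and 1.21 in KO libraries, against 0.365 and 0.655 in WT libraries. Without WT replicate 1 the limma calls of BRCA1, BARD1 and BRIP1 were lost (adjusted p = 0.115, 0.0514 and 0.101), and without KO replicate 1 those of BRCA1 and BRIP1 (adjusted p = 0.0685 and 0.0674).

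XRCC2, XRCC3, RAD51C and RAD51D encode related proteins that act together in complexes at the processed strand, and 1 of the 4 passed the test. XRCC2 had 5.82 and 4.70 FPKM in KO cells, against 1.35 and 2.20 FPKM in WT cells, and it rose 2.96-fold (log2 change 1.18, SE 0.20, limma adjusted p = 0.0150). RAD51C had 4.98 and 4.66 FPKM in KO cells, against 4.39 and 4.997 FPKM in WT cells, and the groups overlapped (log2 change 0.03, SE 0.14, limma adjusted p = 0.883). RAD51D, which joins these proteins in 1 complex, had 1.77 and 2.06 FPKM in KO cells, against 2.07 and 2.21 FPKM in WT cells (log2 change -0.11, SE 0.15, limma adjusted p = 0.628). XRCC2 over RAD51C was thus 1.17 and 1.01 in KO libraries, against 0.309 and 0.440 in WT libraries. XRCC3, which pairs with RAD51C in another complex, had 2.71 and 3.93 FPKM in KO cells, against 1.81 and 2.23 FPKM in WT cells (log2 change 0.51, SE 0.19, limma adjusted p = 0.114). Of its exon bases 76.7% lie under exons of KLC1 on the other strand, and the sources used here do not say whether the counting used strand.

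The genes of 2 proteins that help the strand invade its partner rose. RAD51AP1, which binds DNA and promotes the joining, had 12.4 and 11.3 FPKM in KO cells, against 2.44 and 2.55 FPKM in WT cells. It rose 4.74-fold with little spread inside either group (log2 change 1.87, SE 0.13, limma adjusted p = 0.0031). RAD54L, the motor protein that drives strand exchange, had 4.87 and 5.07 FPKM in KO cells, against 1.89 and 2.20 FPKM in WT cells (2.43-fold, log2 change 0.97, SE 0.14, limma adjusted p = 0.0099). RAD54L shares 25.1% of its exon bases with LRRC41 on the other strand. Its relative RAD54B was not tested for want of level, with 1.25 and 0.884 FPKM in KO cells, against 0.340 and 0.333 FPKM in WT cells. These RAD54B values stand for 116 and 77 reads in KO libraries, against 33 and 29 reads in WT libraries, and FSBP shares 59.1% of its exon bases. Without WT replicate 1 the limma calls of XRCC2 and RAD54L were lost (adjusted p = 0.0708 and 0.0727), and XRCC2 also missed the threshold without KO replicate 1 (adjusted p = 0.0517).

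Of the 5 genes of end resection 1 passed the test. EXO1, the nuclease of long-range resection, had 7.49 and 5.99 FPKM in KO cells, against 1.19 and 1.80 FPKM in WT cells. It rose 4.51-fold (log2 change 1.64, SE 0.19, limma adjusted p = 0.0059). The genes of the MRE11-RAD50-NBN complex, which senses the end and starts the trimming, did not pass. MRE11, its nuclease, had 5.08 and 4.35 FPKM in KO cells, against 3.14 and 2.79 FPKM in WT cells, with no overlap (log2 change 0.53, SE 0.14, limma adjusted p = 0.0517). Limma voom on recovered reads called MRE11 (adjusted p = 0.0271). RAD50, the complex's ATPase, had 1.74 and 1.67 FPKM in KO cells, against 1.47 and 1.58 FPKM in WT cells (log2 change 0.10, SE 0.15, limma adjusted p = 0.658). The annotated gene AC116366.3 covers 79.7% of RAD50's exon bases on the same strand, so its level is uncertain.

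NBN, the complex's signalling subunit, had 16.1 and 11.0 FPKM in KO cells, against 11.5 and 9.41 FPKM in WT cells, and the groups overlapped (limma adjusted p = 0.312). RBBP8, which encodes CtIP, the cofactor of MRE11, had 7.72 and 5.13 FPKM in KO cells, against 5.53 and 5.51 FPKM in WT cells. The WT values of RBBP8 lay between the KO values (limma adjusted p = 0.586). EXO1 over MRE11 was 1.47 and 1.38 in KO libraries, against 0.380 and 0.646 in WT libraries.

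The BLM complex dissolves joined DNA molecules without crossing over, and all 3 of its listed genes rose. BLM, the helicase, had 3.64 and 3.15 FPKM in KO cells, against 0.320 and 0.905 FPKM in WT cells (5.55-fold, log2 change 1.47, SE 0.22, limma adjusted p = 0.0114). The WT libraries differed from each other more than the KO libraries did, and the BLM fold was 10.6 without WT replicate 2. BLM passed the filter only through its KO libraries. RMI1, a scaffold of the complex, had 7.36 and 5.29 FPKM in KO cells, against 2.36 and 2.35 FPKM in WT cells (2.69-fold, log2 change 1.11, SE 0.18, limma adjusted p = 0.0129). RMI2, its other scaffold, had 6.05 and 8.40 FPKM in KO cells, against 1.27 and 2.69 FPKM in WT cells (3.65-fold, log2 change 1.49, SE 0.28, limma adjusted p = 0.0184). The RMI2 fold was 5.70 without WT replicate 2. BLM over RMI1 was 0.495 and 0.596 in KO libraries, against 0.136 and 0.385 in WT libraries. Limma calls were lost without WT replicate 1 for RMI1 and RMI2 (adjusted p = 0.0608 and 0.0576), without WT replicate 2 for RMI1 (adjusted p = 0.0552) and without KO replicate 2 for RMI2 (adjusted p = 0.0566).

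The Fanconi core complex is the ubiquitin ligase of the crosslink pathway, and 6 of the 9 listed genes, UBE2T included, rose. UBE2T, the enzyme that passes ubiquitin to FANCD2, had 28.5 and 26.4 FPKM in KO cells, against 5.90 and 7.20 FPKM in WT cells. It rose 4.19-fold (log2 change 1.92, SE 0.15, limma adjusted p = 0.0034). FANCL, the ligase subunit that binds UBE2T, had 8.24 and 8.05 FPKM in KO cells, against 5.77 and 5.11 FPKM in WT cells (1.50-fold, log2 change 0.51, SE 0.13, limma adjusted p = 0.0453). UBE2T over FANCL was 3.47 and 3.28 in KO libraries, against 1.02 and 1.41 in WT libraries. The FANCL call was lost under 10 of the 13 alternatives, each of the 4 fits without 1 library among them (limma adjusted p up to 0.305, without WT replicate 2). FANCL shares 18.7% of its exon bases with VRK2 on the other strand, which had 4.03 and 3.53 FPKM in KO cells, against 1.80 and 1.99 FPKM in WT cells.

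FANCA, a subunit that carries FANCG, had 5.11 and 5.14 FPKM in KO cells, against 1.15 and 1.59 FPKM in WT cells (3.74-fold, log2 change 1.38, SE 0.16, limma adjusted p = 0.0057). FANCG itself had 11.5 and 12.9 FPKM in KO cells, against 4.84 and 6.85 FPKM in WT cells (2.09-fold, log2 change 0.96, SE 0.18, limma adjusted p = 0.0204). FANCB, of the catalytic module with FANCL, had 3.10 and 2.14 FPKM in KO cells, against 0.518 and 0.764 FPKM in WT cells (4.08-fold, log2 change 1.13, SE 0.20, limma adjusted p = 0.0162). Within each of these 3 genes the lower KO library stood above the higher WT library. FANCB passed the filter only through its KO libraries. FANCF, the adaptor of the complex, had 6.65 and 7.34 FPKM in KO cells, against 2.58 and 2.67 FPKM in WT cells (2.67-fold, log2 change 1.14, SE 0.13, limma adjusted p = 0.0060). FANCA shares 23.6% of its exon bases with ZNF276 and FANCF 11.3% with GAS2, both on the other strand. Limma calls were lost without WT replicate 1 for FANCG and FANCB (adjusted p = 0.125 and 0.0699), without KO replicate 2 for FANCG (adjusted p = 0.0565) and without KO replicate 1 for FANCB (adjusted p = 0.0518).

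The subunits that join FANCF in recognising FANCD2 did not pass the test, although their groups did not overlap. FANCC had 2.24 and 2.58 FPKM in KO cells, against 1.55 and 1.56 FPKM in WT cells (log2 change 0.42, SE 0.15, limma adjusted p = 0.0974). FANCE had 2.25 and 2.54 FPKM in KO cells, against 1.34 and 1.52 FPKM in WT cells (log2 change 0.48, SE 0.15, limma adjusted p = 0.0713). FANCM, the translocase that anchors the complex on DNA, had 2.27 and 1.64 FPKM in KO cells, against 0.970 and 1.07 FPKM in WT cells (log2 change 0.54, SE 0.18, limma adjusted p = 0.0809). Limma voom on recovered reads called FANCC and FANCM (adjusted p = 0.0344 and 0.0225). FANCA over FANCC was 2.28 and 1.99 in KO libraries, against 0.741 and 1.02 in WT libraries.

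FANCD2 and FANCI, the pair that the core complex marks with ubiquitin, both rose. FANCD2 had 5.49 and 4.01 FPKM in KO cells, against 1.40 and 1.78 FPKM in WT cells (2.98-fold, log2 change 1.14, SE 0.19, limma adjusted p = 0.0135). FANCI had 16.9 and 14.1 FPKM in KO cells, against 4.74 and 6.14 FPKM in WT cells (2.86-fold, log2 change 1.36, SE 0.17, limma adjusted p = 0.0074). FANCD2 over FANCI was 0.324 and 0.284 in KO libraries, against 0.295 and 0.290 in WT libraries, and these ranges overlapped. FANCI shares 5.90% of its exon bases with POLG. The limma call of FANCD2 was lost without WT replicate 1 (adjusted p = 0.0696).

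Among the checkpoint genes the kinase CHEK1 and the histone gene H2AFX rose. H2AFX encodes H2AX, the histone that is phosphorylated around a break, and had 61.4 and 68.9 FPKM in KO cells, against 11.3 and 15.7 FPKM in WT cells. It showed the largest log2 change of the 35 tested genes (2.20, SE 0.19, limma adjusted p = 0.0039; 4.82-fold). CHEK1, the kinase that ATR activates at stalled forks, had 6.34 and 5.27 FPKM in KO cells, against 2.46 and 2.81 FPKM in WT cells (2.20-fold, log2 change 0.90, SE 0.15, limma adjusted p = 0.0143). Its call was lost in the limma fits without WT replicate 1 and without WT replicate 2 (adjusted p = 0.102 and 0.0612).

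The kinases above CHEK1 and the parallel kinase did not pass. ATR had 7.09 and 4.43 FPKM in KO cells, against 4.72 and 3.76 FPKM in WT cells, and the groups overlapped (limma adjusted p = 0.318). ATM, the kinase that answers double-strand breaks, had 4.82 and 3.52 FPKM in KO cells, against 3.35 and 2.82 FPKM in WT cells (log2 change 0.33, SE 0.18, limma adjusted p = 0.227). CHEK2, its target, had 3.42 and 3.55 FPKM in KO cells, against 2.26 and 2.32 FPKM in WT cells, with no overlap (log2 change 0.45, SE 0.13, limma adjusted p = 0.0638). CHEK1 over CHEK2 was 1.85 and 1.49 in KO libraries, against 1.09 and 1.21 in WT libraries. CHEK2 shares 6.70% of its exon bases with HSCB, and ATR shares 16.4% with AC109992.1, a pseudogene listed at 0 in all 4 libraries.

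**Figure D3:**
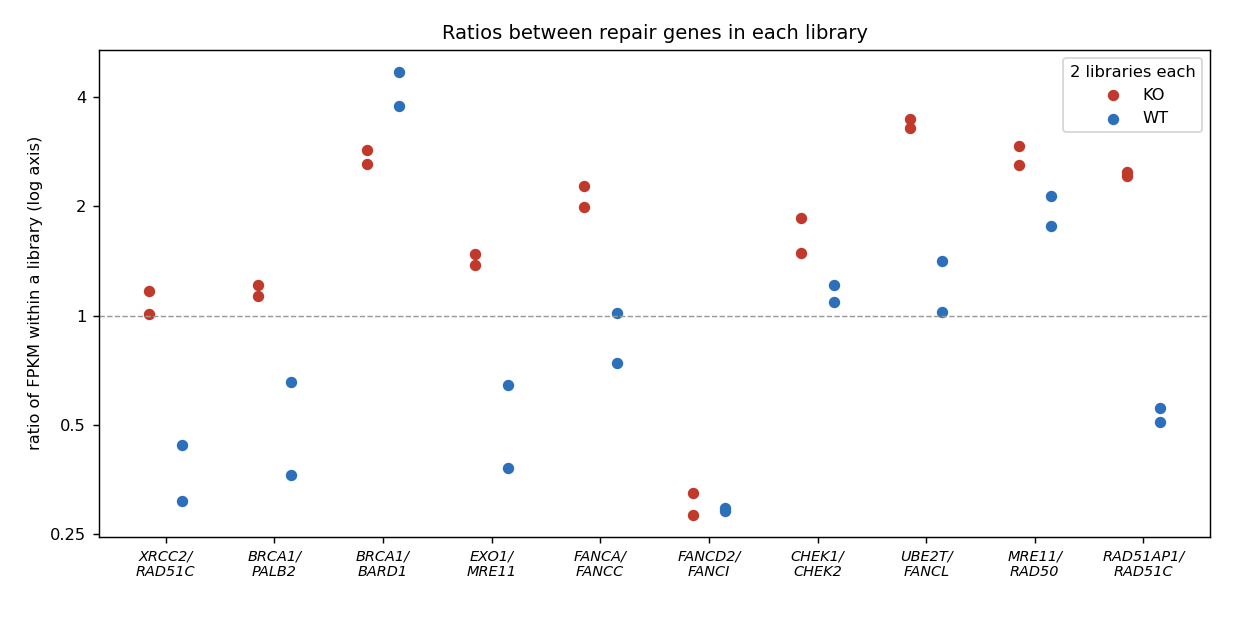
Ratio of FPKM between pairs of these genes within each library (log axis), with the KO libraries in red to the left and the WT libraries in blue to the right of each pair; the dashed line marks a ratio of 1. BRCA1 over BARD1 is lower in the KO libraries (2.85 and 2.60, against 3.76 and 4.67 in WT), and FANCD2 over FANCI overlaps.

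Of 57 other tested genes of the same pathways, 15 rose (26.3%, against 12.1% of all tested genes) and 1 fell, with a median log2 change of 0.18. Each fit without 1 library called fewer of them higher. Among other recombination genes, 5 of 19 rose (26.3%). They were DNA2, a resection nuclease, EME1, a subunit of a joint-cutting nuclease, and MCM8, a helicase. The rest, RPA1 and GEN1, were named after their values were seen. DNA2 had 8.16 and 7.08 FPKM in KO cells, against 1.31 and 2.37 FPKM in WT cells (4.15-fold, limma adjusted p = 0.0081). SFR1, a recombination cofactor also named after its values were seen, fell, with 8.48 and 7.48 FPKM in KO cells, against 16.5 and 14.8 FPKM in WT cells (limma adjusted p = 0.0128; 0.104 without WT replicate 1 and 0.0606 without WT replicate 2). Without WT replicate 1 the limma calls of EME1, MCM8, RPA1 and GEN1 were lost as well (adjusted p = 0.0600, 0.0695, 0.0748 and 0.104). The fit without KO replicate 2 ended the call of EME1 (adjusted p = 0.0519), and the fit without WT replicate 2 that of GEN1 (adjusted p = 0.0698).

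Of 16 other Fanconi genes 3 rose (18.8%, against 12.1% of all tested genes) and none fell by limma. Of these 16 genes, 1 was lower at an unadjusted p under 0.05 and 1 by limma voom. RAD18, a ubiquitin ligase of stalled forks, rose 2.11-fold (limma adjusted p = 0.0256), USP1, which takes ubiquitin off FANCD2, 1.63-fold (0.0474) and RFWD3, a ligase of RPA, 1.58-fold (0.0359). Each of these 3 limma calls was lost without WT replicate 1 (adjusted p = 0.141, 0.230 and 0.215), without WT replicate 2 (0.0927, 0.189 and 0.188) and without KO replicate 1 (0.0693, 0.101 and 0.0813). Of 23 other checkpoint genes 7 rose (30.4%) and none fell by limma, with 1 lower at an unadjusted p under 0.05 and 1 lower by limma voom. Among the 20 of them with at least 1 FPKM in both WT libraries, 4 rose (20.0%), against 10.6% of all such genes. CDC25C, the phosphatase that starts mitosis, had 5.23 and 4.22 FPKM in KO cells, against 0.197 and 0.329 FPKM in WT cells (limma adjusted p = 0.0034). CDC25C passed the filter only through its KO libraries. CLSPN, the mediator between ATR and CHEK1, rose 3.33-fold (limma adjusted p = 0.0146) and TIMELESS, a fork protector, 2.33-fold (0.0070), and both calls were lost without WT replicate 1 (0.0560 and 0.0551).

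In the other repair pathways 13 of 54 tested genes rose (24.1%, against 12.1% of all tested genes) and 2 fell, with a median log2 change of 0.22. Each fit without 1 library called fewer of them higher. POLQ end joining, the error-prone route that uses short matching ends, had 3 of 4 genes called. POLQ, its polymerase, had 6.16 and 5.10 FPKM in KO cells, against 1.14 and 1.47 FPKM in WT cells (4.31-fold, limma adjusted p = 0.0052). Classical end joining had 3 of 14 called (21.4%) and mismatch repair 2 of 7 (28.6%). Neither list had a gene lower by limma, at an unadjusted p under 0.05 or by limma voom. Nucleotide excision repair had 2 of 15 higher (13.3%, near the share of all tested genes) and DDB2 lower. Base excision repair had 4 of 16 higher (25.0%) and SMUG1, named after its values were seen, lower. NEIL3, a glycosylase that can unhook a crosslink, rose 4.07-fold (limma adjusted p = 0.0053). The limma call of DDB2 was lost in each fit without 1 library (adjusted p = 0.0661 to 0.248), and that of SMUG1 without WT replicate 1 and without WT replicate 2 (0.130 and 0.139).

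Genes of dividing cells were higher beside the repair genes. Of 15 tested S phase genes 14 rose (median log2 change 1.46), and all 16 G2/M genes did, their median being 2.95, against 12.1% of all tested genes. Only 13 of the 16 G2/M genes had at least 1 FPKM in both WT libraries. All 13 rose, against 10.6% of all such genes. The summed G2/M level was 564 and 527 FPKM in KO cells, against 47.2 and 85.4 FPKM in WT cells, and the summed S phase level was 436 and 447 FPKM in KO cells, against 260 and 272 FPKM in WT cells. MKI67, a marker of cycling cells, rose 11.8-fold, and 19.2-fold without WT replicate 2. Of the 35 tested repair genes, 6 had a log2 change above the S phase median and 0 above the G2/M median. These are changes of log2(FPKM + 1), a scale that understates the change of low genes. BLM, for 1, rose 5.55-fold with a log2 change of 1.47, so the order depends in part on level. The WT library with the higher G2/M sum, replicate 2, was also the higher one for 27 of the 36 repair genes. The share of all tested genes with that order was not taken, so the count cannot be set against a background. The part of the share of dividing cells in the change of the repair genes was not tested.

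**Figure D4:**
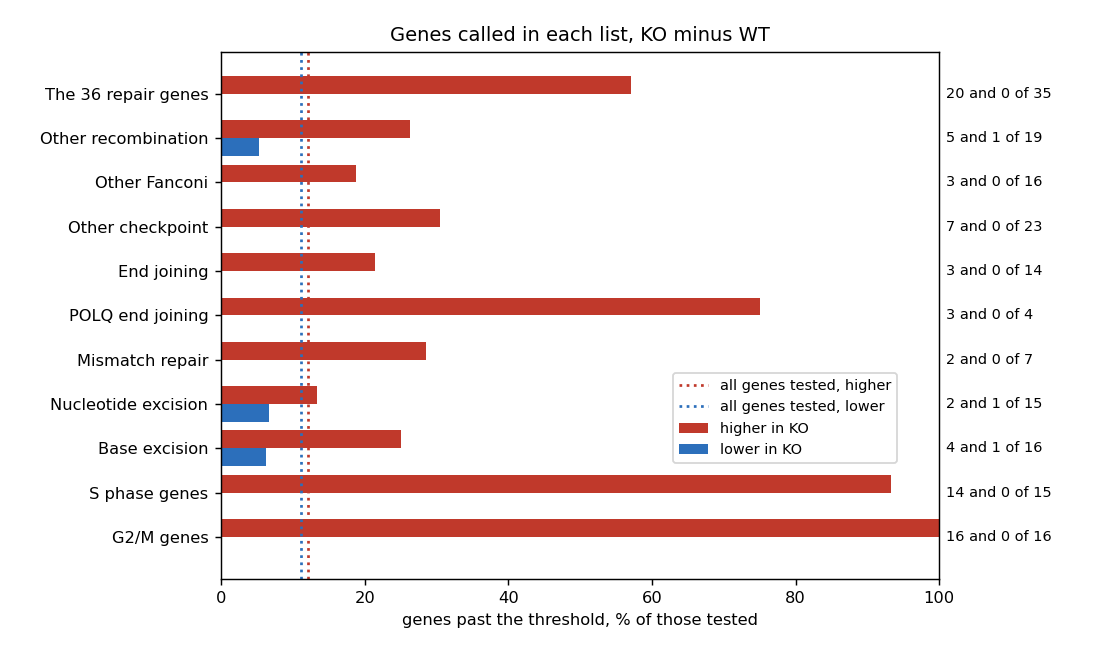
Share of tested genes called in KO minus WT for the 36 repair genes and 10 other lists, in percent, red bars for higher and blue bars for lower, with the counts at the right; dotted lines give the shares over all tested genes (12.1% higher and 11.1% lower). The repair genes, at 20 of 35, stand between the other repair lists with more than 4 tested genes and the S phase list at 14 of 15.

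Counted from the outermost annotated start of each gene, 13 of the 36 genes start within 1000 bases of the start of a gene on the other strand that points away. Of the 14 such neighbours 8 were tested, 2 rose and 1 fell, with a median log2 change of 0.23. C12orf4 starts 290 bases from RAD51AP1 and had 5.24 and 3.67 FPKM in KO cells, against 3.88 and 3.72 FPKM in WT cells (log2 change 0.17, SE 0.18, limma adjusted p = 0.535). NBR1, an autophagy receptor that starts 236 bases from the outermost BRCA1 start, had 18.6 and 15.1 FPKM in KO cells, against 26.8 and 23.8 FPKM in WT cells (log2 change -0.56, SE 0.16, limma adjusted p = 0.0570). Both neighbours missed the threshold where RAD51AP1 and BRCA1 rose, and NBR1 passed it, as lower in KO cells, under 4 of the 13 alternatives (limma adjusted p up to 0.0487), which include scaling by total reads, limma voom and the fit without KO replicate 1. RefSeq lists BRCA1 promoters at chr17:43170278-43170577 and, further downstream, at chr17:43125315-43125614. NBR1 does not start within 1000 bases of the downstream one. Which BRCA1 start these cells used was not tested, so NBR1 may not be a neighbour of the start in use.

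DCTN5, a dynactin subunit that starts 82 bases from PALB2, had 6.68 and 6.04 FPKM in KO cells, against 10.6 and 9.51 FPKM in WT cells, and it fell (log2 change -0.58, SE 0.14, limma adjusted p = 0.0338) where PALB2 overlapped. MOSPD2 beside FANCB rose (log2 change 0.65, SE 0.15, limma adjusted p = 0.0350), and so did FKBP3 beside FANCM (log2 change 0.65, SE 0.17, limma adjusted p = 0.0461). CIDECP beside FANCD2, HNRNPK beside RMI1 and ZFYVE21 beside XRCC3 did not pass (limma adjusted p = 0.0820, 0.0730 and 0.214), and limma voom called HNRNPK (adjusted p = 0.0417). Leaving out 1 library ended the limma calls of DCTN5 and MOSPD2 in each of the 4 fits (adjusted p up to 0.253 and 0.224) and that of FKBP3 in each but the fit without KO replicate 1 (adjusted p up to 0.287). No test of a gene against its neighbour was made.

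**Figure D5:**
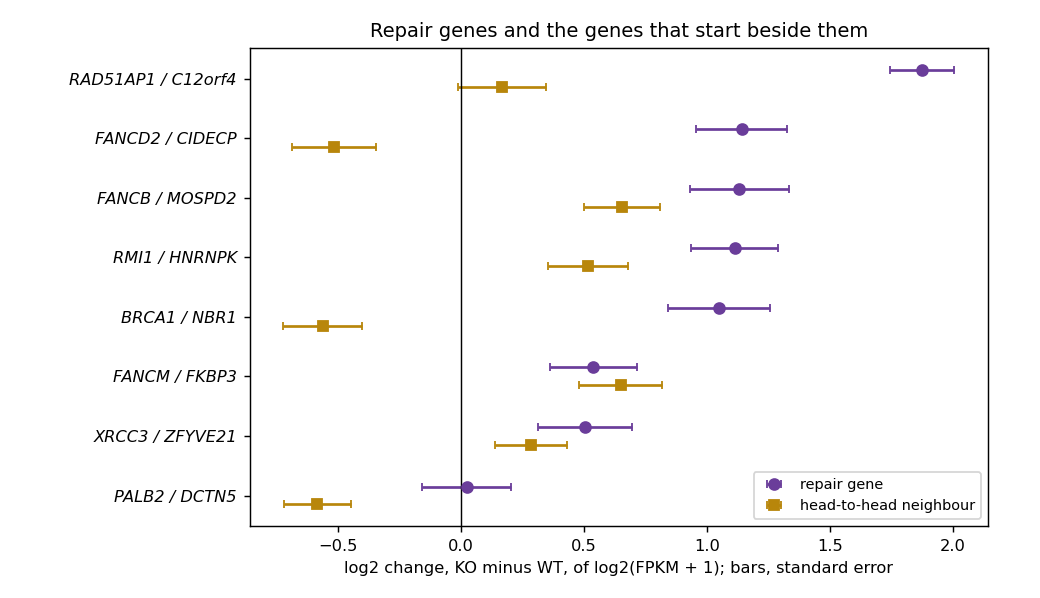
Log2 change, KO minus WT, of 8 repair genes (circles) and of the tested gene that starts head to head with each (squares), with the standard error as a bar. Starts are the outermost annotated ones, and BRCA1 also has a downstream start that is not beside NBR1. RAD51AP1 at 1.87 stands farthest from its neighbour C12orf4 at 0.17, and NBR1, DCTN5 and CIDECP lie below 0.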

How the data were processed

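Per the labels' protocols, total RNA was extracted from HFL1 cells. Per the submitters' processing notes, reads were aligned with HISAT2 2.0.5, and hg38 and mm10 are named as builds. The authors deposited 1 table of gene FPKM values for 4 libraries, 2 KO and 2 WT, and its 58735 genes match GENCODE 29 on GRCh38. Multiplied by gene length, the FPKM values gave whole reads for 100% of entries (tolerance 0.01 reads). The sources used here give neither the counting tool nor its use of strand. Depth was 16173899 to 17715774 reads; 3 reads of RAD54B are worth at most 0.0345 FPKM, for counting error only.

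Genes with at least 1 FPKM in at least 2 libraries were fitted with limma 3.58.1 in R 4.3.3 on log2(FPKM + 1), with an intensity trend in the prior, KO minus WT. This scale understates the change of low genes. P-values were adjusted by Benjamini-Hochberg over 14100 genes, and called means an adjusted p under 0.05. Folds are ratios of mean FPKM. The fit was also run on simulated data with independent libraries and the same spread setting for all genes. Same-numbered libraries of the real data deviated together, so that run does not show how the fit behaves here. The 13 alternatives were other pseudocounts, filters, scalings and priors, a replicate block, 1 library left out in turn and, chosen after seeing the data, limma voom on recovered reads.

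The members, and the lists compared with them, were chosen with earlier results of these data known. Named are the members, CALU, tested head-to-head neighbours and, per other list, up to 3 called genes by size of change. VIM, S100A4, COL1A2 and POSTN, like the genes said to be so in the text, were named after their values were seen. mm10 and the proteomics data named by the design text were not used here.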

Additional observations from a re-analysis of the deposited data

How the results depend on the processing

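The direction of 32 of the 35 tested members held under the 13 alternatives. The exceptions, none of them called, were PALB2 (log2 change -0.011 under quantile normalization, -0.018 scaled by total reads, -0.0032 by limma voom, -0.17 to 0.22 without 1 library), RAD51C (-0.015 under quantile normalization, -0.0077 scaled by total reads, -0.044 to 0.11 without 1 library) and RBBP8 (-0.089 to 0.42 without 1 library). The neighbour C12orf4 ranged from -0.039 to 0.38 without 1 library. With no filter on low values, where 32306 genes were tested, calls of higher genes dropped to 3 members, 1 other pathway gene, 0 genes of the other repair pathways and 10 cycling genes; over all genes 183 rose and 193 fell by limma. Of those other repair genes 18 were higher and 5 lower at an unadjusted p under 0.05 there, and limma voom with the main filter called 14 and 4. Without 1 library, limma calls ranged from 8 to 17 members, 2 to 14 other pathway genes, 2 to 12 genes of the other repair pathways and 26 to 30 cycling genes, and over all genes from 505 to 1321 higher and 537 to 1260 lower. Where 1 library is left out, the lone library is taken to vary like the other group. Libraries share only a replicate number, and same-numbered libraries deviated together (r = 0.41 over 14100 genes). With the replicate block 25 members, 23 other pathway genes and, over all genes, 2968 higher and 2577 lower were called; the neighbours NBR1, HNRNPK and CIDECP passed the threshold under it too. Quantile normalization and scaling by total reads each kept 19 members called. Count tests by edgeR and DESeq2 were planned and not run. The deposited unit is FPKM, and limma voom on recovered reads was run in their place. With 2 libraries a group, the depth of 39 and 99 BLM reads in WT and the spread of WT limit what the low genes can show.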
